A study of Bos taurus with 64 samples.

Results

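Mitochondrial ribosome, import and protein synthesis genes were followed in the muscles of cows exposed to preslaughter stress. The set was taken by gene name from the array annotation: the proteins of the mitochondrial ribosome (MRPL and MRPS names), the translation factors, the TOMM and TIMM import proteins, the factors that copy and read mitochondrial DNA, and the proteases, prohibitins and fusion proteins of the organelle. It held 40 of the 5449 gene names and probe sets of the array, each with 1 probe. These were 24 large subunit proteins, 5 small subunit proteins, 3 translation factors (MTIF2, TSFM, TUFM), 3 inner membrane import proteins (TIMM22, TIMM23, TIMM50), 2 outer membrane import names (TOMM34, TOMM40L), 1 transcription factor of mitochondrial DNA (TFB2M), 1 protease (LONP1) and MFNG. MFNG was taken by its name only, since manic fringe is a glycosyltransferase that modifies Notch receptors and no mitochondrial protein. No prohibitin, polymerase or fusion protein of the organelle was among the names found.

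A mitochondrion keeps a small genome that encodes core subunits of the respiratory chain, and reads it with a ribosome of its own. The proteins of this ribosome, and almost all other mitochondrial proteins, are encoded in the nucleus, made in the cytosol and brought in through the translocases of the outer membrane (TOM) and the inner membrane (TIM). Slow, oxidative muscle fibres are rich in mitochondria and fast, glycolytic fibres hold fewer.

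The M. longissimus thoracis (LT) and the M. semitendinosus (ST) of 32 Normand cows were measured on 64 single-colour arrays, 1 array per muscle and cow. The 16 stressed cows were transported alone and led through a labyrinth on an unknown farm for 30 minutes, and the 16 cows handled with limited stress were kept calm. All cows were 4.5 ± 0.1 years old and had eaten a straw and concentrate diet with linseed and rapeseed lipids for 101 ± 3 days. In each stress group 8 cows received the control diet, which is this diet alone, and 8 the EP diet, which adds vitamin E and plant extracts rich in polyphenols. The muscles were excised within 15 minutes after slaughter. Whole muscle was used, so fewer cells of a type and less RNA per cell cannot be told apart.

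Values are given as the log2 of a probe's signal over the 75th percentile of its array, so that 0 is the 75th percentile and 1 unit is a doubling. All 40 probes were well above background on all 32 arrays of both muscles, and all of them were tested. Of the 13414 non-control spots of an array, between 71.4% and 80.9% were well above background, and the 75th percentile ranged from 2470 to 4202 units. Both arrays of cow321, a stressed cow on the control diet, stood apart: the median distance of its probes from the median of the muscle was 0.399 in the LT, where the other arrays reached 0.243, and 0.356 in the ST, where they reached 0.234. The comparisons were therefore also run without this cow, while the spread and the correlations between cows include it. The markers of skeletal muscle were measured, with 7 of 10 on the array. No slide and no scan day held arrays of both muscles.

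The probes that the comparisons turn on are shown by the first 30 of their 60 bases, 5′ to 3′, as the array files list them, because each value rests on this single stretch of the transcript. Positions are those of the files, in the bovine build Btau_3.1, and what part of the gene lies there was not given in the sources used here. MRPL20 lies on chr16:48408808-48408867 (plus strand), MRPL48 on chr15:52888317-52888376 (plus strand), MRPL23 on chr29:51396450-51399456 (minus strand) and MRPS34 on chr25:1804931-1804990 (minus strand). The MRPL23 stretch covers 3007 bases of the genome for a probe of 60 bases. MTIF2 lies on chr11:39478775-39478834 (minus strand), TFB2M on chr16:27882274-27882333 (plus strand), TOMM34 on chr13:74113804-74113863 (minus strand) and MFNG on chr5:81642478-81642537 (minus strand). No part of a sequence is marked in capitals.
MRPL20: agttacaagcccaagagaaaaggacttgtc
MRPL48: cactgcaaggagtatctcctctccttgctt
MRPL23: tgcagctggcacacgggcagaccttcacat
MRPS34: tccccgccaacttgtcgaggatttacgttt
MTIF2: agaatttaaagtgggagatgctattatttg
TFB2M: atttttatatcctcctgggggagcagaaga
TOMM34: tggttcagctttggatcactttggaacttt
MFNG: catgaagggaatgtcaagacaatcatttcc

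Few of these transcripts passed the test for stress, and the differences were small. In the LT of stressed cows, MRPL20 and MRPL48, both proteins of the large subunit, were called lower, and in the ST another, MRPL23, was called lower. No member was called higher in either muscle. The median of the members lay below 0 and below that of the array in the LT. For the ST it lay below 0 but above that of the array, with a sign that turned under 2 of the scalings.

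In the LT, MRPL20 ranged from 1.08 to 1.52 with a median of 1.25 in the 16 cows handled with limited stress, and from 0.80 to 1.34 with a median of 1.09 in the 16 stressed cows. The groups overlapped, with 2 of the 16 stressed cows above the median that limited stress gave and 8 below the lowest value there. The log2 difference was -0.20 ± 0.06 (SE), a fold of 0.868 (adjusted p = 0.0662, limma). MRPL48 ranged from -0.64 to 0.11 with a median of -0.18 under limited stress and from -1.10 to 0.07 with a median of -0.44 in stressed cows. The ranges overlapped, but just 1 of 16 stressed cows exceeded the limited stress median, and 4 fell under the lowest cow of that group. Its log2 difference in the LT was -0.25 ± 0.08 (SE), a fold of 0.839 (adjusted p = 0.0822, limma).

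In the ST, MRPL23 ranged from 1.15 to 1.71 with a median of 1.46 under limited stress and from 0.85 to 1.61 with a median of 1.26 in stressed cows. Here 2 of the 16 stressed cows exceeded the limited stress median and 5 fell under the lowest cow, so that the groups overlapped. The log2 difference was -0.20 ± 0.06 (SE), a fold of 0.872 (adjusted p = 0.0788, limma).

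In either direction, 5% of the members were called in the LT and 2.5% in the ST, near the shares of the array. In the LT these were all lower calls, a share above the 1.53% of the array, but only 2 genes. In the LT, 2 of the 40 members were called lower and 0 higher, where 3.73% of the 4311 transcripts tested were called, 1.53% lower and 2.2% higher. In the ST, 1 of the 40 was called lower and 0 higher, where 3.6% of 4246 transcripts were called, 2.12% lower and 1.48% higher. At an unadjusted p under 0.05 stood 11 members in the LT and 4 in the ST, and 13.6% and 12.9% of all transcripts tested. Each member has 1 probe, while other transcripts can have several, so these shares are not like for like. Counted by single probe, 1674 of 10441 LT probes and 1790 of 10305 ST probes had such a p. All 3 calls were within the threshold of 0.1 for the adjusted p and none passed 0.05.

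Leaving out cow321, the model and the scaling changed these calls. Scaled to the control features or unscaled, no member was called in either muscle, with an adjusted p for MRPL20 in the LT of 0.409 and 0.153 (limma). Without cow321, MRPL20 was still called in the LT (adjusted p = 0.0944, limma), MRPL48 was not (log2 difference -0.24, adjusted p = 0.121) and MRPL23 was not in the ST (-0.19, adjusted p = 0.105), which left 1 call in the LT and 0 in the ST. With the slide of the arrays as a block, 6 members were called lower in the LT (MRPL20, MRPL23, MRPL43, MRPL48, MRPS34 and MTIF2) and 0 in the ST. With the cow as a replicate block over both muscles, 3 members were called in the LT, MRPS34 with the earlier 2, and 0 in the ST.

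**Figure D1:**
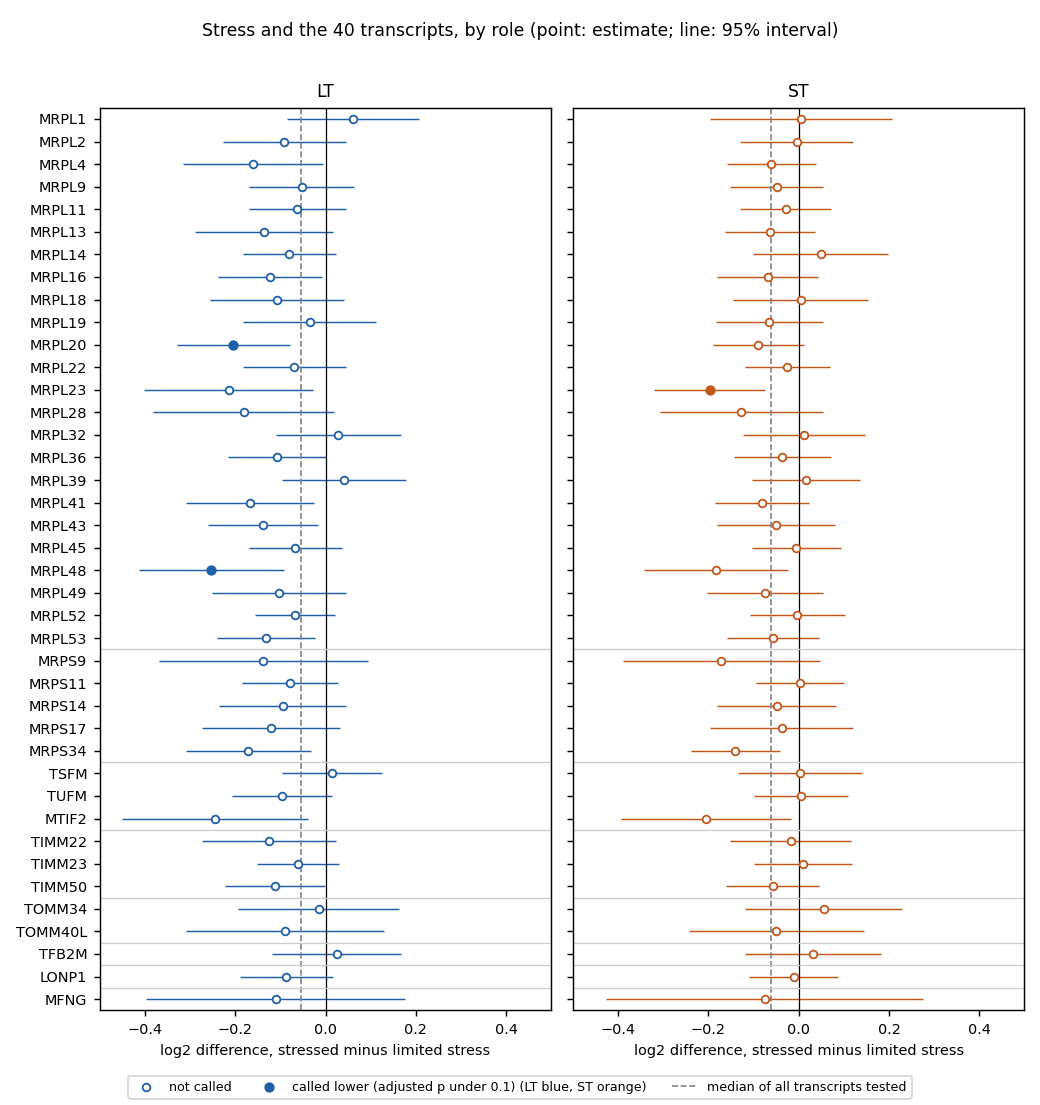
Log2 difference (x axis), stressed minus limited stress, for each of the 40 transcripts (y axis, grouped by role with grey lines), in the LT (blue, left) and the ST (orange, right), with 95% intervals. Filled points are the 3 called transcripts, and the dashed line is the median of all transcripts tested, at -0.05 in the LT and -0.06 in the ST.

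In the other muscle the same genes did not pass the threshold. MRPL48 differed by -0.18 ± 0.08 in the ST (adjusted p = 0.214) and MRPL23 by -0.21 ± 0.09 in the LT (adjusted p = 0.237), while MRPL20 differed by -0.09 ± 0.05 in the ST (adjusted p = 0.352, all from limma). The values of both muscles come from the same cows, and the next test took their arrays as independent. The test of whether the stress difference depended on the muscle gave 0 calls among the 40 members (limma), beside 0% of all 4230 transcripts, with 0 members at an unadjusted p under 0.05 and a lowest adjusted p of 0.999. For MRPL20 the LT difference minus the ST difference was -0.11, with a 95% interval from -0.27 to 0.04.

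MRPS34, a small subunit protein, and MTIF2, the initiation factor of mitochondrial translation, were called in neither muscle and had an unadjusted p under 0.05 in both. In the ST, MRPS34 ranged from 0.47 to 0.89 with a median of 0.71 under limited stress and from 0.39 to 0.75 with a median of 0.59 in stressed cows. The ranges overlapped, with 1 of 16 stressed cows over the limited stress median and 6 under the lowest cow of that group. The log2 difference was -0.14 ± 0.05 in the ST (adjusted p = 0.119) and -0.17 ± 0.07 in the LT (adjusted p = 0.190, limma).

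MTIF2 ranged in the LT from -5.29 to -4.59 with a median of -4.79 under limited stress and from -6.06 to -4.68 with a median of -5.08 in stressed cows. The lowest value was that of cow321. The log2 difference was -0.24 ± 0.10 in the LT (adjusted p = 0.217) and -0.21 ± 0.09 in the ST (adjusted p = 0.238, limma), and without cow321 it was -0.18 in the LT and -0.16 in the ST. MTIF2 was the member with 2 spots on the array, which differed from each other by a median of 0.10 in log2 over the 64 arrays. A custom set of 5 probes gave a mean difference of -0.20 (LT) and -0.16 (ST), also not called. It was matched to MTIF2 only because 1 of its probes shares at least 25 bases with the probe above.

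**Figure D2:**
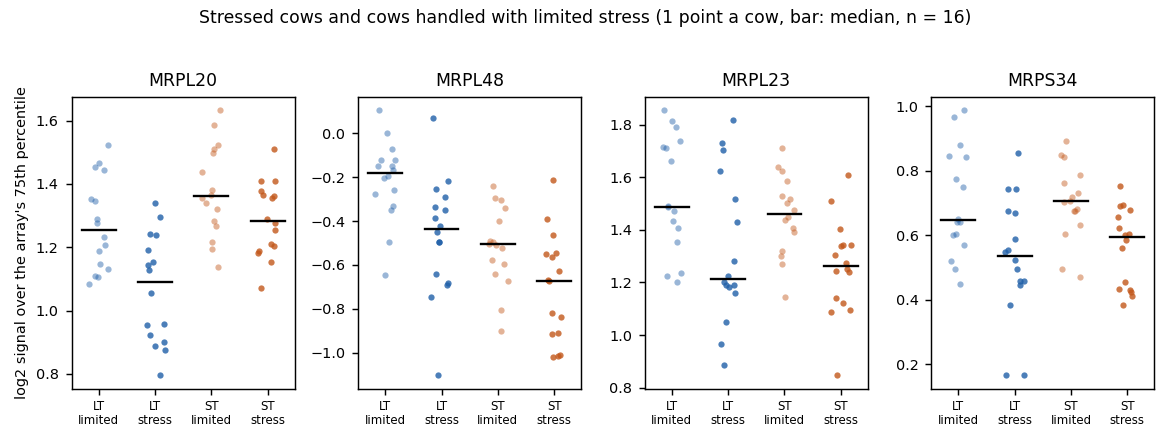
Log2 signal over the 75th percentile (y axis) of MRPL20, MRPL48, MRPL23 and MRPS34 in each cow, by muscle (LT blue, ST orange) and stress group (x axis, stressed cows in the darker tone), with the median of 16 cows as a bar. In every pair of groups the medians of the stressed cows lie lower and the points overlap.

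By role, most LT differences lay below 0. The 24 large subunit proteins had a median log2 difference of -0.11 (from -0.25 for MRPL48 to 0.06 for MRPL1), with 2 called lower, 0 called higher and 21 below 0. The 5 small subunit proteins had a median of -0.12 and all lay below 0, with 0 called. The 3 translation factors ran from -0.24 for MTIF2 over -0.10 for TUFM, which carries charged tRNA to the ribosome, to 0.01 for TSFM, which recharges TUFM, with 0 called. The 3 TIMM proteins ran from -0.12 for TIMM22, the insertase of carrier proteins, to -0.06 for TIMM23, the channel for proteins with a presequence, with 0 called. TOMM40L differed by -0.09 ± 0.11, TOMM34 by -0.02 ± 0.09, LONP1, a protease of the matrix, by -0.09 ± 0.05, and TFB2M, needed to start transcription of mitochondrial DNA, by 0.02 ± 0.07 (SE, n = 16 and 16 cows).

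Over all 40 members the median log2 difference in the LT was -0.10, beside -0.05 over all transcripts tested, and 35 of 40 lay below 0, as did 65.2% of all transcripts. Below the median of all transcripts lay 32 of the 40. In the ST the median was -0.04, beside -0.06 over all transcripts, and 29 of 40 lay below 0, as did 69.8% of all transcripts, while 13 of 40 lay below the median of all. Without cow321 the median of the members was -0.08 in the LT and -0.02 in the ST. Scaled to the control features, the median was -0.28 in the LT beside -0.23 over all transcripts, and in the ST it turned to 0.05 beside 0.03. With unscaled signals it was -0.06 in the LT beside -0.02, and 0.11 in the ST beside 0.09. The sign in the ST thus went with the scaling of the arrays, for the members as for the array. The log2 of the 75th percentile itself had a mean of 11.76 in stressed and 11.73 in limited stress cows in the LT, and of 11.69 and 11.54 in the ST. The part of this scale in the differences was not tested.

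**Figure D3:**
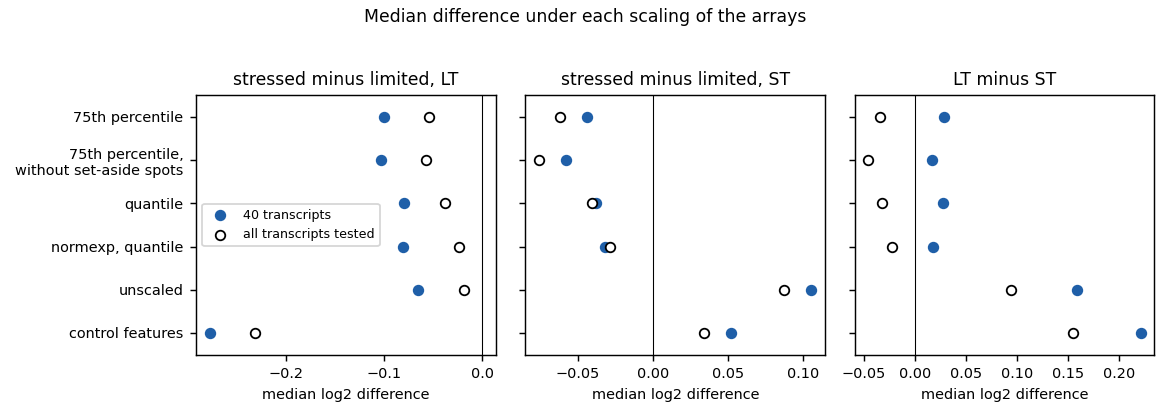
Median log2 difference (x axis) of the 40 transcripts (blue points) and of all transcripts tested (open points) under 6 scalings of the arrays (y axis), for stress in the LT, stress in the ST and the LT against the ST. In the LT the blue point lies to the left of the open one under each scaling, and in the ST both turn above 0 with unscaled signals and with the control features.

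Within slides, the stressed and limited stress cows could be set against each other on the same glass. The median over the 39 members other than MFNG was below 0 on all 4 LT slides, from -0.16 to -0.05, and the median of all transcripts was from -0.08 to -0.01. On the 5 ST slides it ranged from -0.13 to 0.05, beside -0.07 to -0.04 for all transcripts. MRPL20 was lower in stressed cows on 4 of 4 LT slides, MRPL48 on 3 of 4, and MRPL23 on 5 of 5 ST slides. These counts reuse the arrays of the tests above and are not particular to called genes. MRPL4, not called for stress, was lower on 4 of 4 LT and 5 of 5 ST slides, while MRPL1 was lower on 1 of 4 LT slides. Slides held between 1 and 6 cows of a stress group, and no test was made within them.

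2 larger families that serve the same organelle or the same process gave a reference. Of 69 respiratory chain and ATP synthase genes, 0 were called in either muscle, with a median log2 difference of -0.07 (LT) and 0.03 (ST). Of 55 cytosolic ribosomal proteins, 1 was called lower in the LT and 0 in the ST, with medians of -0.13 and -0.03. The lean below 0 in the LT was thus shared by both families. There 64 of the 69 respiratory chain genes and 54 of the 55 cytosolic ribosomal proteins lay below 0, and 43 and 52 below the median of all transcripts. In the ST, 16 and 41 lay below 0, and 3 and 9 below that median. Of the smaller lists, 0 genes were called in either muscle: 3 of 15 regulators of mitochondrial biogenesis, 3 of 19 mitochondrial tRNA synthetases, 5 of 22 genes for the import motor, processing and folding, and 1 of 3 fission genes were on the array and tested, and none of 14 genes for the upkeep of mitochondrial DNA and RNA was on it.

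Markers of the cells of muscle were read beside these differences. For stress, 0 of the tested markers of muscle fibre (7), slow fibre (6), fast fibre (5), fat (4), fibroblast (5), endothelium (1), immune (1) and satellite cells (1) were called in either muscle. The single blood marker that passed the filter on dim probes was tested in the LT and not called, and none of the 4 nerve markers was on the array. The medians furthest from 0 were those of the satellite cell list and of the fat markers. Of the 2 satellite cell markers on the array only MYF5 was tested, at -0.63 in the LT and -0.47 in the ST, with an unadjusted p under 0.05 in both. The fat markers had medians of -0.20 and -0.61. The part of the markers in the differences above was not tested.

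MRPL39, a large subunit protein that the study used as a reference gene for qPCR, ranged in the LT from -0.87 to -0.28 with a median of -0.53 under limited stress and from -0.81 to -0.13 with a median of -0.52 in stressed cows. The groups overlapped almost entirely. Its log2 difference was 0.04 (95% interval from -0.10 to 0.18) in the LT and 0.02 (from -0.10 to 0.14) in the ST, and -0.04 (from -0.12 to 0.05) between LT and ST, none of them called. These intervals do not show that the groups were equal. For the 39 members other than MFNG, the 95% intervals of the stress difference reached a median of 0.14 to either side of the estimate in the LT and 0.12 in the ST, and all 39 lay within 0.5 on either side of 0 in both muscles.

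The diet left no call among these genes. Between the EP diet and the control diet, 0 of the 40 members were called in the LT and 0 in the ST (limma), as were 0% of the 4311 and 0% of the 4246 transcripts. At an unadjusted p under 0.05 stood 1 member in the LT, MRPL32 (log2 difference -0.15 ± 0.07, adjusted p = 0.979), and 0 in the ST. All 39 intervals lay within 0.5 of 0 in both muscles. The test of whether the stress difference depended on the diet gave 0 calls among the members and among all transcripts in both muscles, with 2 members at an unadjusted p under 0.05 in the LT (MRPL52 and TOMM34) and 3 in the ST (MRPL18, MRPL52 and TFB2M). These intervals were wider and reached a median of 0.28 to either side in the LT and 0.24 in the ST, and 33 of the 39 in the LT and 34 in the ST lay within 0.5 of 0.

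Between the muscles, by contrast, 22 members were called, in both directions. In the LT, TFB2M, MRPL48, TOMM40L, MRPS9, MRPS14 and TSFM were higher than in the ST by 0.21 to 0.41 in log2, and TOMM34, MRPL16, MRPL20 and MRPL4 were lower, with differences from -0.20 to -0.16. In all, 15 of the 40 members were called higher in the LT and 7 lower, which is 55.0%, where 51.7% of the 4230 transcripts tested were called, 21.9% higher and 29.9% lower. The share of members called was thus near that of the array, though other transcripts can have several probes. Counted by single probe, 5968 of 10254 had an adjusted p under 0.1 between the muscles. Because each slide and scan day held 1 muscle, muscle and slide or scan day cannot be told apart in these values.

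TFB2M ranged from -0.40 to 0.39 with a median of -0.01 in the LT and from -0.88 to 0.08 with a median of -0.44 in the ST of the 32 cows. It was higher in the LT in 29 of the 32 cows, though the ranges overlapped. The log2 difference of 0.41 ± 0.05 (SE), a fold of 1.33 (adjusted p = 7.92e-10, limma), was the largest of the members apart from MFNG. MFNG, which is no mitochondrial protein, was higher in the LT by 0.52 ± 0.11 and in 29 of 32 cows (adjusted p = 9.24e-05, limma).

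Among the ribosomal proteins, MRPL48 ranged from -1.10 to 0.11 with a median of -0.31 in the LT and from -1.02 to -0.21 with a median of -0.57 in the ST. It was higher in the LT in 31 of 32 cows. The log2 difference was 0.27 ± 0.06 (SE), a fold of 1.21 (adjusted p = 4.43e-05, limma). MRPS14, a small subunit protein, was also higher in the LT in 31 of 32 cows, with ranges of 0.73 to 1.73 in the LT and 0.62 to 1.53 in the ST, and a log2 difference of 0.24 ± 0.05 (adjusted p = 2.13e-05, limma).

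In the other direction, MRPL20 was lower in the LT in 28 of 32 cows, with a range of 0.80 to 1.52 in the LT and of 1.07 to 1.63 in the ST, and a log2 difference of -0.16 ± 0.04 (adjusted p = 0.000270, limma). MRPL16 was lower in 27 of 32 cows, with a log2 difference of -0.17 ± 0.04 (adjusted p = 0.000213). MRPL4 was lower in 28 of 32 cows, with a difference of -0.16 ± 0.04 (adjusted p = 0.00178, limma). A custom set of 5 probes gave -0.07 and was not called. It was matched to MRPL4 only because 1 of its probes shares at least 25 bases with the member's probe. With the arrays scaled to their 75th percentile, proteins of the same subunit thus differed in opposite directions, but none was called lower with the control features or unscaled.

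**Figure D4:**
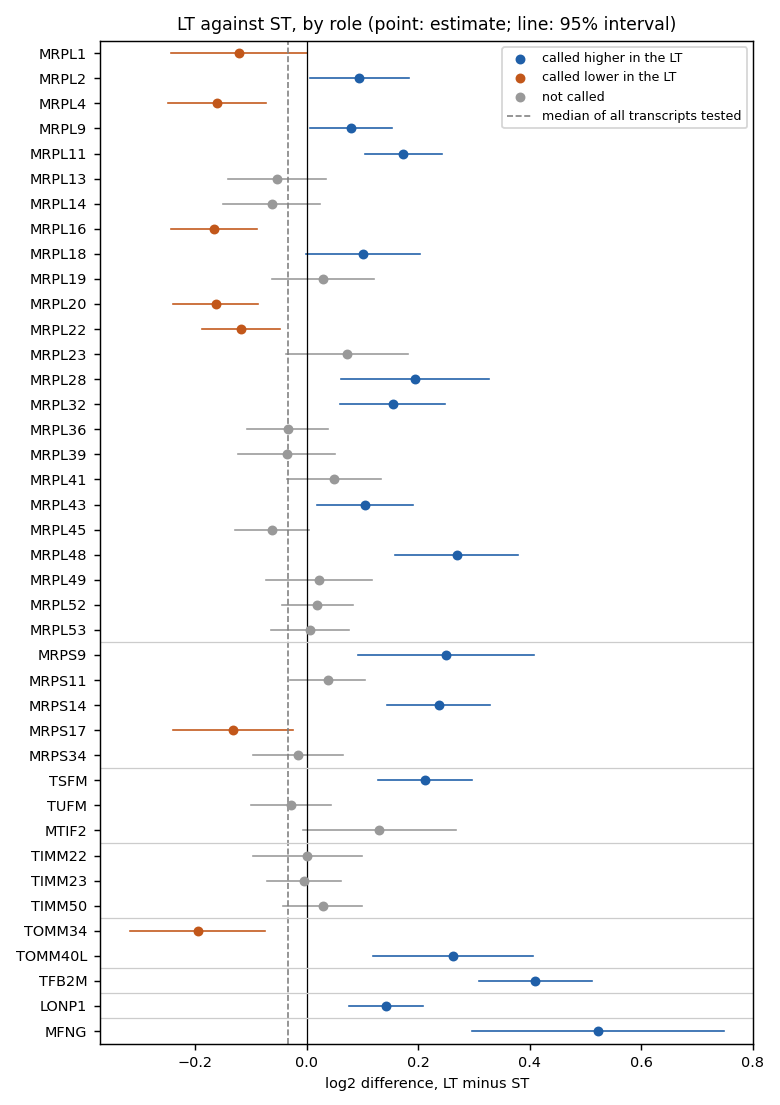
Log2 difference LT minus ST (x axis) for each of the 40 transcripts (y axis, by role with grey lines) with 95% intervals, blue where called higher in the LT, orange where called lower and grey where not called. Of the 24 large subunit proteins, 8 are called higher and 5 lower, and the 3 TIMM proteins lie near 0.

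The large subunit had 8 of its 24 members called higher in the LT and 5 lower, with a median of 0.02. The small subunit had 2 of 5 higher (MRPS9 and MRPS14) and 1 lower (MRPS17), with a median of 0.04. MRPL11, MRPL28 and MRPS9 were higher by 0.17 ± 0.03, 0.19 ± 0.07 and 0.25 ± 0.08 (SE), in 28, 27 and 27 of the 32 cows. Of the translation factors, TSFM was higher by 0.21 ± 0.04, in 26 of the 32 cows (adjusted p = 2.67e-05, limma), while MTIF2 (0.13 ± 0.07) and TUFM (-0.03 ± 0.04) were not called.

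Of the import proteins, both TOMM names were called in the main fit, in opposite directions, and no TIMM protein was. The lower call of TOMM34 was lost with the control features (-0.0086) and unscaled. TOMM40L, a relative of the TOM channel protein, ranged from -5.13 to -3.68 in the LT and from -5.18 to -3.86 in the ST and was higher in the LT by 0.26 ± 0.07, in 28 of 32 cows (adjusted p = 0.00178, limma). TOMM34, a cytosolic cochaperone of import, ranged from -2.93 to -1.87 in the LT and from -2.57 to -1.83 in the ST and was lower in the LT, with a difference of -0.20 ± 0.06, in 27 of 32 cows (adjusted p = 0.00558, limma). In the main fit the 3 inner membrane proteins were not called and lay between -0.0047 for TIMM23 and 0.03 for TIMM50, with 95% intervals within 0.10 of 0. This also depended on the fit. Over the 13 alternatives the TIMM50 difference ranged from 0.017 to 0.24, with a lowest adjusted p of 0.000725 (limma). Such a range is not given here for TIMM22 and TIMM23. The TIMM50 value used 31 LT arrays, since its spot was set aside on 1 array. LONP1 was higher in the LT by 0.14 ± 0.03, in 25 of 32 cows (adjusted p = 0.000255, limma).

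**Figure D5:**
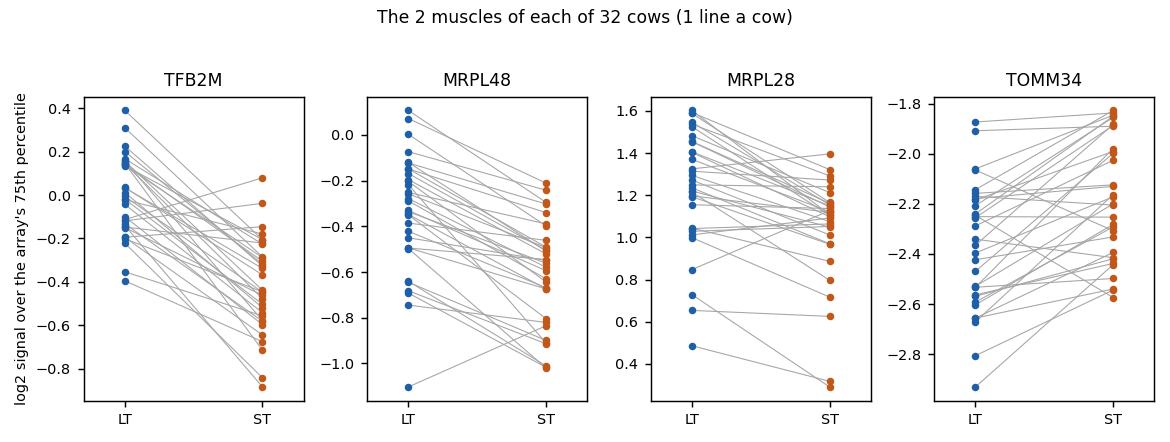
Log2 signal over the 75th percentile (y axis) of TFB2M, MRPL48, MRPL28 and TOMM34 in the LT (blue) and the ST (orange) of each of the 32 cows, with a line for each cow. Most lines fall from LT to ST for the first 3 genes and rise for TOMM34.

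The split between higher and lower calls depended on the scaling. With quantile normalization 15 members were called higher and 10 lower, scaled to the control features 17 higher and 0 lower, and with unscaled signals 29 higher and 0 lower. The median of all transcripts tested was -0.03 with the 75th percentile, 0.15 with the control features and 0.09 unscaled, and that of the members 0.03, 0.22 and 0.16. The 15 higher calls were kept with both of these scalings and the 7 lower calls with neither, and the differences of MRPL16 and MRPL20 turned to 0.021 and 0.024 with the control features. With the slide as a random block, 11 higher and 5 lower calls were kept. TFB2M, MRPL48, TOMM40L, MRPS9, MRPS14, TSFM, MRPL11, MRPL28, MRPL32, LONP1 and MFNG were called higher in the LT in all 13 alternatives.

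The respiratory chain genes lay mostly on 1 side. Of 69 genes, 48 were called higher in the LT and 7 lower, with a median of 0.17. The cytosolic ribosomal proteins had 13 of 55 higher and 20 lower, with a median of -0.03. Both families are given with the scaling of the main fit only, and whether their lower calls hold under other scalings was not tested. Of the smaller lists, HSPD1, HSPE1 and TRAP1, mitochondrial chaperones, were higher in the LT by 0.13, 0.11 and 0.20, with 3 of 5 tested genes of import, processing and folding called higher and 0 lower. Among the regulators, SIRT1 was higher by 0.13 and PRKAA1, a subunit of the energy sensor AMPK, was lower with a difference of -0.34, with 3 tested. Of 3 tRNA synthetases tested 2 were called higher, and the fission gene was not called.

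Fibre markers moved with the same comparison. Of 6 slow fibre markers tested, 4 were called higher in the LT (TNNT1 by 0.91, ATP2A2 by 0.64, MYL3 by 0.51 and TNNC1 by 0.50) and 1 lower (MYH7, with -0.12). All 5 fast fibre markers tested were called lower, from -0.17 to -0.13, as were 6 of 7 general fibre markers. These lists overlap, since the general list shares MYH1 with the fast list and MYH7 and TNNT1 with the slow list. The marker values are given with the scaling of the main fit only. With the control features or unscaled signals no member kept a lower call, and whether the markers keep theirs was not tested. Of the other markers, 1 of 5 fibroblast genes was called lower, the endothelial gene and the satellite cell gene were called higher, and 0 of 4 fat genes and the immune gene were called. The part of fibre type in the differences of the members was not tested.

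The spread of these transcripts between cows was small. After the means of the 4 groups of a muscle were removed, the SD between cows had a median of 0.18 in log2 in the LT over the 39 members other than MFNG, from 0.10 for MRPL52 to 0.33 for MRPS9, beside 0.30 over all transcripts. In the ST the median was 0.16, from 0.12 for MRPL22 to 0.31 for MRPS9, beside 0.28. In each muscle 37 of the 39 members had an SD below the median of all transcripts. The respiratory chain genes (0.19 in both muscles) and the cytosolic ribosomal proteins (0.16 and 0.14) had medians of the same size.

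Members also varied together between cows. The correlation over the 32 cows of a muscle, after removal of the group means, had a median of 0.29 over 703 pairs of members in the LT. In the ST it was 0.35 over 741 pairs, and over pairs of all transcripts it was 0.014 for the LT and 0.0049 for the ST. For the respiratory chain the median was 0.55 and 0.64, and for the cytosolic ribosomal proteins 0.61 and 0.48. With the slide means also removed, the members' median was 0.31 in the LT and 0.37 in the ST. The pairs share arrays and their scaling, cow321 is included, and no test was made. As for the spread, all transcripts include probes well above background on fewer arrays than the members, and the part of signal level was not tested. Apart from MFNG, the lowest median correlations with the other members were those of MRPL23 (-0.04), MRPL49 (-0.03) and MRPL32 (0.02) in the LT, and of MRPL41 (0.0051) and MRPL23 (0.06) in the ST. The member closest to MRPL23 was MRPS34 in the LT (0.71) and MRPL41 in the ST (0.80).

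MRPL28, a large subunit protein, was among the members whose differences between cows went together in both muscles. Of its 32 values in the LT, from 0.49 to 1.60, the 3 lowest were those of cow321 (0.49), cow286 (0.65) and cow287 (0.73), and the same 3 cows had 0.32, 0.63 and 0.29 in the ST, the 3 lowest of 32 there as well. Both cow321 and cow287 were stressed cows and cow286 was handled with limited stress. The correlation between LT and ST over cows, group means removed, was 0.77 for MRPL28, beside 0.77 for MRPS9, 0.76 for TIMM22 and 0.72 for MRPL48, where its median was 0.31 over 38 members and 0.41 over all transcripts. For MRPL19 it was -0.17. Without cow321 the LT minus ST difference of MRPL28 was 0.19. The correlations include cow321 and were not computed without it.

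Some proteins of the mitochondrial ribosome stood on the array under other names and were not part of the set. They were picked after their values were seen. TC384178, described in the files as part of ribosomal protein L7/12, was lower in the LT of stressed cows with a difference of -0.26 ± 0.07 (adjusted p = 0.0413, limma) and differed by -0.03 ± 0.13 in the ST, and it was higher in the LT than in the ST by 0.74 ± 0.07 (adjusted p = 1.04e-12). TC334792, described as ribosomal protein S23, was higher in the LT by 0.26 ± 0.07 (adjusted p = 0.00108) and was not called for stress. Its stress difference was -0.29 ± 0.10 for the ST (adjusted p = 0.108, limma) and -0.09 ± 0.10 for the LT. MRP63 and MGC152194, the latter described as similar to L17, were not called in these comparisons. For stress, MGC152194 lay above 0, with 0.42 ± 0.18 (ST) and 0.17 ± 0.18 (LT). MRP63 lay below 0, with -0.10 ± 0.08 (ST) and -0.12 ± 0.08 (LT).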

How the data were processed

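Total RNA of the 64 muscle samples was labelled with Cy3, and the authors read the arrays with Agilent's Feature Extraction software. The deposited intensities are processed signals that this software had corrected for background and spatial trend, per the file headers, and the deposited table held the same intensities, not scaled and not log-transformed. Groups came from the labels, and the cow number pairs the muscles of a cow.

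The members, gene lists and tests were chosen with earlier results of these data known. Each signal was divided by the 75th percentile of the non-control spots of its array and log2 transformed, spots set aside by the software as uneven or outliers were left out, and a probe was tested in a muscle when 11 or more of its 32 arrays showed it well above background. Models with the groups of stress and diet were fitted with limma 3.58.1 and statmod 1.5.0 in R 4.3.3, with two-sided tests and p adjusted by the Benjamini-Hochberg method over all probes. Comparisons over both muscles had no block for the cow in the main fit. A gene was called when at least 80% of its probes had an adjusted p under 0.1 in 1 direction, after the study's methods, whose period term was not in the labels used here. The scaling to control probes of these methods was kept as an alternative, since the median of the 536 control features was 3.24 units. Their number differs from that of the control probes the study describes, so this alternative may not be the authors' scaling. Precision is limited by the number of arrays. Of the 40 members, 34 had their accession in a RefSeq gene table (ARS-UCD2.0), all with the same symbol. For the cow block, the deviations of the 2 arrays of a cow correlated by 0.106 to 0.768 over 9543 probes, and the consensus correlation was 0.407.

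Named are the members called for stress, the 12 largest of those called between muscles, the 5 smallest p per muscle for stress, the largest difference of each role and MRPL39. MRPL1, MRPL4, MRPL18, MRPL19, MRPL22, MRPL32, MRPL41, MRPL43, MRPL49, MRPL52, MRPS17, TIMM23 and TUFM are named outside this rule, after their values were seen.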

Additional observations from a re-analysis of the deposited data

Results flagged for a closer look

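Among the 20 named members, the 8 groups of 8 cows gave 160 sets of values, of which 14 held a cow far from the others of its group, with a gap to the nearest cow over Dixon's critical share of the range. Chance flags about 1 in 20 groups. All values are log2 over the 75th percentile.

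Cow321, a stressed cow on the control diet, was the lowest of its group for MRPL28 in the ST (0.32, next 1.05) and, in the LT, for MRPL53 (1.23), MRPS14 (0.73, next 1.24) and MTIF2 (-6.06, next -5.29). Its arrays also stood apart over all probes. Cow286, limited stress and EP diet, was the lowest for MRPL28 in both the LT (0.65, next 1.27) and the ST (0.63, next 1.01).

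In the stressed cows on the EP diet, cow287 was the lowest in the ST for LONP1 (2.59, next 2.85) and MRPL53 (1.26, next 1.55). In the LT of the same group, cow330 was the highest for MFNG (-0.78, next -1.53) and the lowest for MTIF2 (-5.59, next -5.15), and cow303 was the highest for MRPS34 (0.85, next 0.59).

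In the limited stress cows on the control diet, cow282 was the lowest for MRPL48 in the LT (-0.64, next -0.28). For TIMM22, cow316 was the lowest in the LT (-0.90, next -0.70) and cow259 the highest in the ST (-0.40, next -0.65).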

How the results depend on the processing

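The count of members called for stress in the LT was 2, and became 0 at an adjusted p under 0.05, with control feature scaling and unscaled, 1 with normexp and quantile normalization, without the filter on dim probes and without cow321, 4 with a scan day block and 6 with a slide block. In the ST it was 1, and became 0 at an adjusted p under 0.05, with control features, unscaled, quantile, without the filter, with slide, scan day or the replicate block of the cow, and without cow321, and 2 with the 75th percentile over the spots not set aside. The replicate block of the cow gave 3 in the LT and changed no count of members for diet or for an interaction, all 0, and 24 between muscles in place of 22. The last scaling and the fits without cow321 were chosen after seeing the data. The causes were not tested.

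The median difference of the members moved with the scaling, to -0.28 in the LT with the control features, to 0.052 (control features) and 0.11 (unscaled) in the ST, and to 0.22 and 0.16 between muscles. Among the differences of named members that were recomputed singly, those that changed sign were MRPL20 in the ST (0.0063 with control features, 0.060 unscaled), MRPS34 in the ST (0.0086 unscaled), and MRPL16 (0.021) and MRPL20 (0.024) between muscles with control features. Other members, not listed singly, may also have turned. The counts for diet and for interactions remained 0 in every alternative run, and the count between muscles stayed within 1.5 times of 22.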
